A study of Gallus gallus with 6 samples.

Results

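Axon guidance genes of the netrin, Slit and semaphorin families were examined in sorted chick retinal cells cultured with or without retinoic acid (RA). The list held 10 genes, made up of the ligands NTN1, SLIT1, SLIT2, SEMA3A and SEMA3D and the receptors DCC, ROBO1, ROBO2, PLXNA1 and PLXNA2. Members were the rows of the raw count table that carry a listed symbol, and 5 of the 10 had such a row, out of 6789 rows in all. These 5 are the ligands. The 5 receptors were not analysed here. Of the 5 ligands, 4 passed the filter on low counts and entered the test, and NTN1 did not.

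Guidance ligands are secreted proteins that attract or repel the growing tip of an axon, the growth cone. Netrin-1 acts through DCC and the UNC5 receptors, Slit proteins act through Robo receptors, and class 3 semaphorins act through neuropilins paired with A-type plexins. In the mouse retina netrin-1 is made at the optic disc and steers ganglion cell axons into the optic nerve, while Slit proteins act on the same axons within the retina and at the optic chiasm. SEMA3A was isolated from chick brain as collapsin-1 for its ability to collapse growth cones. The cells studied here are retinal cells positive for Hes5.3, a repressor gene of the Notch pathway in retinal progenitors.

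The RA group comprised 3 libraries of Hes5.3-positive cells from retinas of embryonic day 5, cultured for 8 h with 2.5 µM RA. The control group comprised 3 libraries from retinas of the same stage, cultured for 8 h with DMSO, the solvent. All retinas were kept in medium with 10% serum, dissociated with trypsin and sorted by flow cytometry. Each library pooled 2 retinas of 2 different embryos. Every treated retina had its fellow eye in the matching control library, which gives pairs 1, 3 and 4. How Hes5.3-positive cells were marked for the sort is not given in the sources used here.

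Total counts were 27235633, 19808063 and 23549626 in the RA libraries of pairs 1, 3 and 4, against 23596376, 21771962 and 26560761 in the control libraries. Levels are given as CPM, that is counts scaled to a common library size of 1e+06, on library sizes scaled by the trimmed mean of M values. Known RA targets checked the treatment. CYP26A1, the gene of an enzyme that degrades RA, averaged 3043 ± 813 CPM in RA libraries and 80.3 ± 6.36 CPM in control libraries (SD, n = 3 each). DHRS3 and RARB had log2 fold changes of 3.26 and 0.91 (edgeR adjusted p = 1.34e-09 and 0.000588). These 3 were the genes called among 7 tested of an RA response list. Of the 7, 0 were called lower and 6 had a log2 fold change above 0. All 17 retinal progenitor markers with a row had reads, led by NOTCH1 at a mean of 2694 CPM, and their summed level was 17024 to 21308 CPM in RA libraries and 15187 to 17686 CPM in control libraries. The progenitor sum was higher with RA within each pair, although the ranges overlapped. Of the 17, 4 were called higher with RA and 0 lower, or 23.5% called higher where 0.952% of all genes tested were. An unadjusted p under 0.05 was found for 8 of the 17, where 8.89% of all genes tested were below that value. Stress and immediate early genes, led by EGR1, summed to 3588 to 4315 CPM in RA libraries and 3225 to 4059 CPM in control libraries. Within each pair that sum was higher with RA. Of the 9 genes 0 were called, 8 had a log2 fold change above 0 and 3 had an unadjusted p under 0.05. Of all genes tested, 48.1% had a log2 fold change above 0 and 8.89% an unadjusted p under 0.05. The part of progenitor and stress genes in the guidance gene values was not tested. Marker lists of other tissues were low: periocular mesenchyme, led by COL3A1, summed to 15.7 to 28.8 CPM in RA libraries and 21.1 to 27.1 CPM in control libraries, with TWIST2 and DCN at 0 in every library. Blood markers, led by EPB42, summed to 2.7 to 3.74 CPM in RA libraries and 2.27 to 4.42 CPM in control libraries, with 5 of 10 at 0 throughout. EPB42 alone averaged 3.33 CPM, and every other blood marker had at most 3 counts in any library. Lens markers, led by CRYAB, summed to 60.9 to 89.6 CPM in RA libraries and 56.2 to 65.6 CPM in control libraries. The lens sum was higher with RA within each pair. Of the 5 lens markers tested, 0 were called, 5 had a log2 fold change above 0 and 2 had an unadjusted p under 0.05. Pigment epithelium markers, led by MITF, summed to 48.8 to 53.2 CPM in RA libraries and 42.1 to 48.6 CPM in control libraries. These sums did not overlap, but the lowest RA sum was just above the highest control sum. MITF alone averaged 43.4 CPM. Among single genes tested, 4.42% had every RA library above every control library. Of the 5 pigment epithelium markers tested, 0 were called and 4 had a log2 fold change above 0. The part of lens and pigment epithelium cells in the guidance gene values was not tested. Endothelial markers, led by EGFL7, and microglial markers, led by PTPRC, summed to at most 14.6 and 12.4 CPM in RA libraries and 16.4 and 11.4 CPM in control libraries. A row near 0 does not by itself show a silent gene in these data, so low sums do not show that such cells were absent. In RNA from a pool of cells, fewer cells of a type and less RNA per cell cannot be told apart.

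Whether RA changed the guidance ligands was tested with edgeR's quasi-likelihood test across all genes, with the pair as a block and p-values adjusted by Benjamini-Hochberg over the 5041 genes tested. Of the 4 ligands tested, 0 had an adjusted p under 0.05, where 1.07% of all genes tested did. At an unadjusted p under 0.05 there was 1 ligand, SLIT1, where 8.89% of all genes tested were below that value. With limma-voom and with DESeq2 the number called was likewise 0. The median log2 fold change of the 4 ligands was 0.203, beside -0.007 over all genes tested. This median lies between SEMA3A, at 0.04 ± 0.14 (SE), and SEMA3D, at 0.36 ± 0.64 (SE). SEMA3D had 9 to 45 counts per library, so the median is loosely set.

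SLIT1 encodes a secreted Slit protein that repels axons carrying Robo receptors. It had 5.63, 14.3 and 9.55 CPM in the RA libraries of pairs 1, 3 and 4, against 5.05, 5.48 and 5.0 CPM in the control libraries. The control libraries lay close together, the RA libraries spread widely, and the groups did not overlap: the lowest RA library, that of pair 1, was just above the highest control library, that of pair 3. Among all genes tested, 4.42% had every RA library above every control library. The within-pair log2 differences were 0.15, 1.37 and 0.92 in pairs 1, 3 and 4, so SLIT1 was higher with RA in 3 of 3 pairs but hardly so in pair 1. The fitted log2 fold change was 0.83 ± 0.29 (SE), a 1.78-fold difference, with a 95% interval of 0.22 to 1.44 (edgeR adjusted p = 0.304). This did not pass the threshold over all genes. Without pair 3 the log2 fold change was 0.55 (edgeR adjusted p = 0.847), and without pair 1 it was 1.16 (edgeR adjusted p = 0.0753). In the authors' deposited table SLIT1 has a log2 fold change of 0.88 with a p-value of 0.0218 and an adjusted p of 0.826.

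The SLIT1 counts behind these levels were 157, 279 and 223 in the RA libraries and 120, 119 and 132 in the control libraries. Counting error was 7.98% for the RA library of pair 1 and 8.7% for the control library of pair 4, smaller than the spread among RA libraries. For the control library of pair 3 it was 9.17%. The gap between that library, at 5.48 CPM, and the RA library of pair 1, at 5.63 CPM, was within counting error. The genes whose log2 CPM followed SLIT1 most closely over the 6 libraries were AGO3, with Pearson's r = 0.986, and AMY1A, with r = 0.984, out of 5040 genes compared. These r values describe 6 libraries that share the treatment and the pairs, and carry no test.

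SLIT2, the other listed Slit ligand, differed little between the groups. It had 290, 362 and 344 CPM in the RA libraries of pairs 1, 3 and 4, against 250, 381 and 399 CPM in the control libraries. The groups overlapped, and the 2 lowest libraries were both of pair 1. Its within-pair log2 differences were 0.21, -0.08 and -0.22, with RA higher in 1 of 3 pairs. The fitted log2 fold change was -0.03 ± 0.08 (SE), and its 95% interval ran from -0.20 to 0.15 (edgeR adjusted p = 0.965). Counts for SLIT2 were 5924 or more in every library, and counting error was at most 1.3%. The direction turned without pair 4, to 0.08 (edgeR adjusted p = 0.941).

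Because the lengths of the transcripts are not in the files, the levels of SLIT1 and SLIT2 cannot be ranked against each other, but their ratio can be followed between libraries. SLIT1 reads amounted to 1.94%, 3.95% and 2.78% of SLIT2 reads in the RA libraries of pairs 1, 3 and 4, against 2.03%, 1.44% and 1.25% in the control libraries. The balance of the 2 Slit genes thus moved toward SLIT1 with RA in pairs 3 and 4 and not in pair 1.

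**Figure D1:**
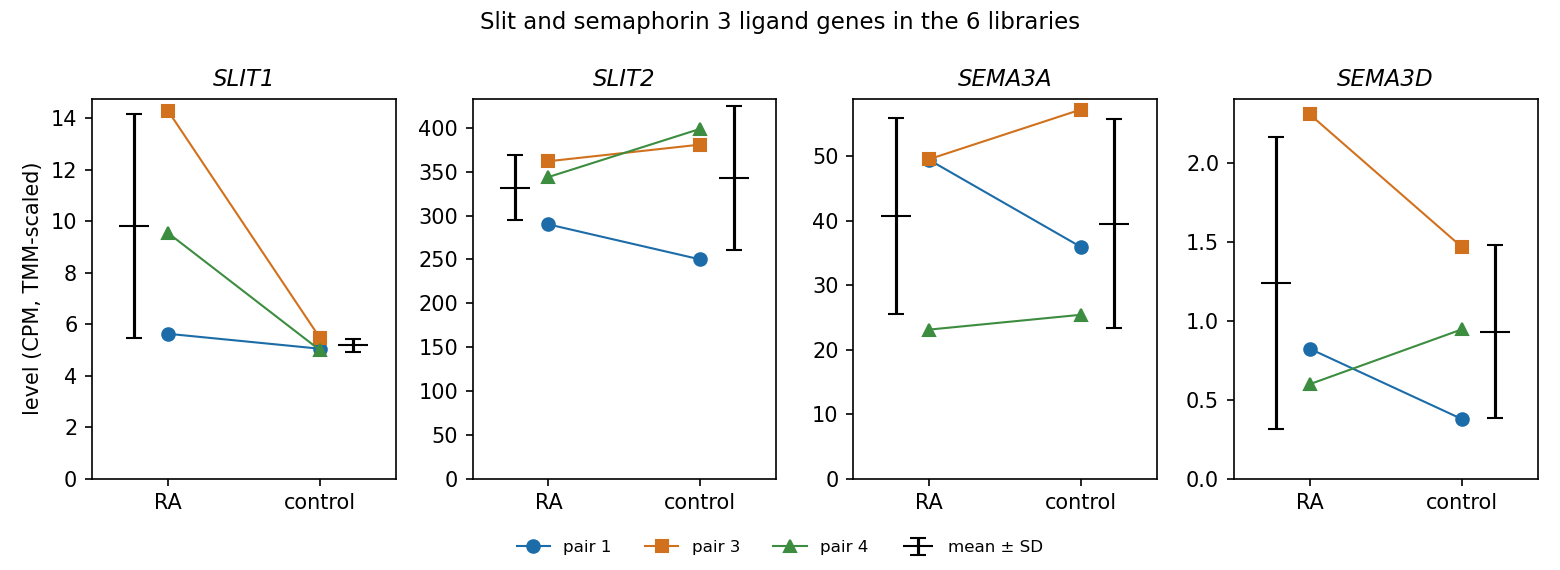
Levels of SLIT1, SLIT2, SEMA3A and SEMA3D in CPM (vertical axes from 0, a separate scale per gene) in RA and control libraries; each symbol is a library, lines join the libraries of a pair, and black bars give the mean ± SD of 3 libraries. SLIT1 lay at 5.63 to 14.3 CPM in RA libraries and at 5.0 to 5.48 CPM in control libraries, whereas the groups overlapped for the other ligands and SEMA3A was lowest in both libraries of pair 4.

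SEMA3A, the class 3 semaphorin that signals through neuropilin-1, differed between the embryo pairs. It had 49.4, 49.5 and 23.1 CPM in the RA libraries of pairs 1, 3 and 4, against 35.9, 57.2 and 25.4 CPM in the control libraries. Both libraries of pair 4 were lowest, and the groups overlapped. The within-pair log2 differences were 0.46, -0.21 and -0.14, with RA higher in 1 of 3 pairs. The fitted log2 fold change was 0.04 ± 0.14 (SE, 95% interval -0.26 to 0.34, edgeR adjusted p = 0.973), and without pair 1 its sign turned, to -0.17 (edgeR adjusted p = 0.790).

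SEMA3D, a relative of SEMA3A that guides retinal axons in the zebrafish tectum, was near the limit of detection. Its counts were 23, 45 and 14 in the RA libraries of pairs 1, 3 and 4, against 9, 32 and 25 in the control libraries. These counts correspond to 0.824, 2.31 and 0.599 CPM in RA libraries and 0.379, 1.47 and 0.946 CPM in control libraries. Counting error alone was 33.3% for the control library of pair 1 and 14.9% for the RA library of pair 3. The highest library was of pair 3 in both groups, and the groups overlapped. The fitted log2 fold change was 0.36 ± 0.64 (SE, edgeR adjusted p = 0.925) with an interval of -1.01 to 1.74, so the data do not limit its change with RA to under 2-fold in either direction.

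NTN1, the gene of netrin-1, had almost no reads. Its counts were 1, 2 and 2 in the RA libraries of pairs 1, 3 and 4, against 2, 0 and 0 in the control libraries, or 5 counts in all RA libraries and 2 in all control libraries. A count of 0 allows up to 3 counts, which is 0.138 CPM in the control library of pair 3 and 0.114 CPM in that of pair 4. No library exceeded that limit, so no fold change is given. Markers of the optic stalk and optic disc, the place where netrin-1 is made in the mouse, summed to 501 to 703 CPM in RA libraries and 590 to 689 CPM in control libraries over 5 genes, most of it from SPON1, at a mean of 536 CPM. PAX2, a transcription factor of the optic stalk, had counts of 453, 314 and 254 in the RA libraries of pairs 1, 3 and 4, against 375, 236 and 236 in the control libraries. These PAX2 counts are not scaled to library size, so they show that reads were present and do not compare RA with control. The gene names of the reference also list NTN1 as an older symbol of NTN3, whose own row had 2 counts in the RA library of pair 1 and 0 in the other libraries. A near-empty row does not by itself show a silent gene in this table, since 623 of its 6789 rows were at 0 in every library. Among them was CDK5, the gene of a kinase that is widely expressed in neural tissue.

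How strongly the ligands differed between the embryo pairs was tested in the same fit with an F-test of the pair terms. Of the 4 ligands tested, 2 differed between pairs at an adjusted p under 0.05, where 13.6% of all genes tested did. Of the 41 other guidance genes tested, which are described below, 12 did. These included 3 of 6 in the Slit and Robo pathway and 4 of 11 among semaphorin, plexin, neuropilin and adhesion genes. SEMA3A averaged 42.6, 53.3 and 24.3 CPM over the libraries of pairs 1, 3 and 4 (edgeR adjusted p for the pair terms = 0.00175). SLIT2 averaged 270.0, 371 and 371 CPM in the same order (edgeR adjusted p = 0.00903). SEMA3A was thus set apart by pair 4 and SLIT2 by pair 1. Pair 1 also had the smallest samples, with 98000 sorted cells and 106.7 ng of RNA in the RA sample and 57000 cells and 52.8 ng in the control sample, against 161000 to 200000 cells and 132 to 207.9 ng in pairs 3 and 4. The part of sample size in the SLIT2 difference was not tested. Without pair 4 the adjusted p of SEMA3A was 0.207, and without pair 1 that of SLIT2 was 0.999. SLIT1 and SEMA3D did not pass (edgeR adjusted p = 0.313 and 0.266).

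Among class 3 semaphorins outside the list, SEMA3E was likewise lowest in pair 4, while SEMA3C and SEMA3F were not when averaged over a pair. SEMA3C averaged 11.1, 20.9 and 13.7 CPM over the libraries of pairs 1, 3 and 4 (edgeR adjusted p for the pair terms = 0.0777), and SEMA3F averaged 78.6, 83.1 and 94.0 CPM (edgeR adjusted p = 0.294). In the RA libraries alone SEMA3C was lowest in pair 4, at 11.9, 24.4 and 10.0 CPM in pairs 1, 3 and 4. Its control libraries had 10.3, 17.5 and 17.4 CPM. SEMA3E encodes a ligand that binds plexin-D1 without a neuropilin. It had 18.9, 14.8 and 4.2 CPM in the RA libraries of pairs 1, 3 and 4, against 19.3, 19.1 and 6.7 CPM in the control libraries (edgeR adjusted p for the pair terms = 0.000556). Its log2 fold change with RA was -0.34 ± 0.20 (SE, edgeR adjusted p = 0.671). The within-pair log2 differences of SEMA3E were -0.36 and -0.66 in pairs 3 and 4, and pair 1 was nearly level, at -0.03. In the RefSeq annotation of GRCg7b, SEMA3D, SEMA3A and SEMA3E are consecutive protein-coding genes of chromosome 1. SEMA3D, at one end of that run, was highest in pair 3 in both groups, and was lowest in pair 4 in the RA libraries and in pair 1 in the control libraries. The ganglion cell and early neuron markers also summed lowest in pair 4, at 1715, 1696 and 1534 CPM in the RA libraries of pairs 1, 3 and 4, against 1650, 1683 and 1531 CPM in the control libraries. Their part in the semaphorin difference was not tested.

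The other genes of the 3 ligand pathways and their growth cone effectors were read from 4 lists. Of 106 genes listed, 45 had a row and 41 were tested. The number called was 1 higher with RA, UNC5B, and 0 lower, where 0.952% of all genes tested were called higher and 0.119% lower. A log2 fold change above 0 was found for 20 of the 41, or 48.8%, beside 48.1% of all genes tested. The 4 rows that did not pass the filter were NTN3, L1CAM, MICAL1 and CDK5, named here after their values were seen.

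In the netrin pathway, UNC5B rose with RA. It encodes a netrin receptor that mediates repulsion and, without its ligand, can promote cell death. UNC5B had 472, 354 and 708 CPM in the RA libraries of pairs 1, 3 and 4, against 272, 271 and 388 CPM in the control libraries. The groups overlapped, because the RA library of pair 3 lay below the control library of pair 4, yet within each pair the RA library was higher. The within-pair log2 differences were 0.79, 0.38 and 0.87. The fitted log2 fold change was 0.68 ± 0.09 (SE), a 1.61-fold rise with a 95% interval of 0.50 to 0.87 on the log2 scale (edgeR adjusted p = 0.000588). UNC5B also differed between pairs (edgeR adjusted p for the pair terms = 0.000705), and in the fit without the pair as a block its log2 fold change was 0.72 with an adjusted p of 1.0. The authors' deposited table gives UNC5B a log2 fold change of 0.72, a p-value of 0.0306 and an adjusted p of 0.94.

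For the other netrin genes tested no change passed. UNC5C, a second UNC5 receptor, had 1.68, 4.46 and 2.14 CPM in the RA libraries of pairs 1, 3 and 4, against 3.16, 1.24 and 1.44 CPM in the control libraries. Its within-pair differences went both ways, and its log2 fold change was 0.48 ± 0.55 (SE, edgeR adjusted p = 0.861). DRAXIN, a secreted protein that binds DCC and netrin-1, had a log2 fold change of 0.28 ± 0.35 (SE, edgeR adjusted p = 0.878), and RGMA, the ligand of the DCC relative neogenin, had -0.06 ± 0.25 (SE, edgeR adjusted p = 0.978).

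**Figure D2:**
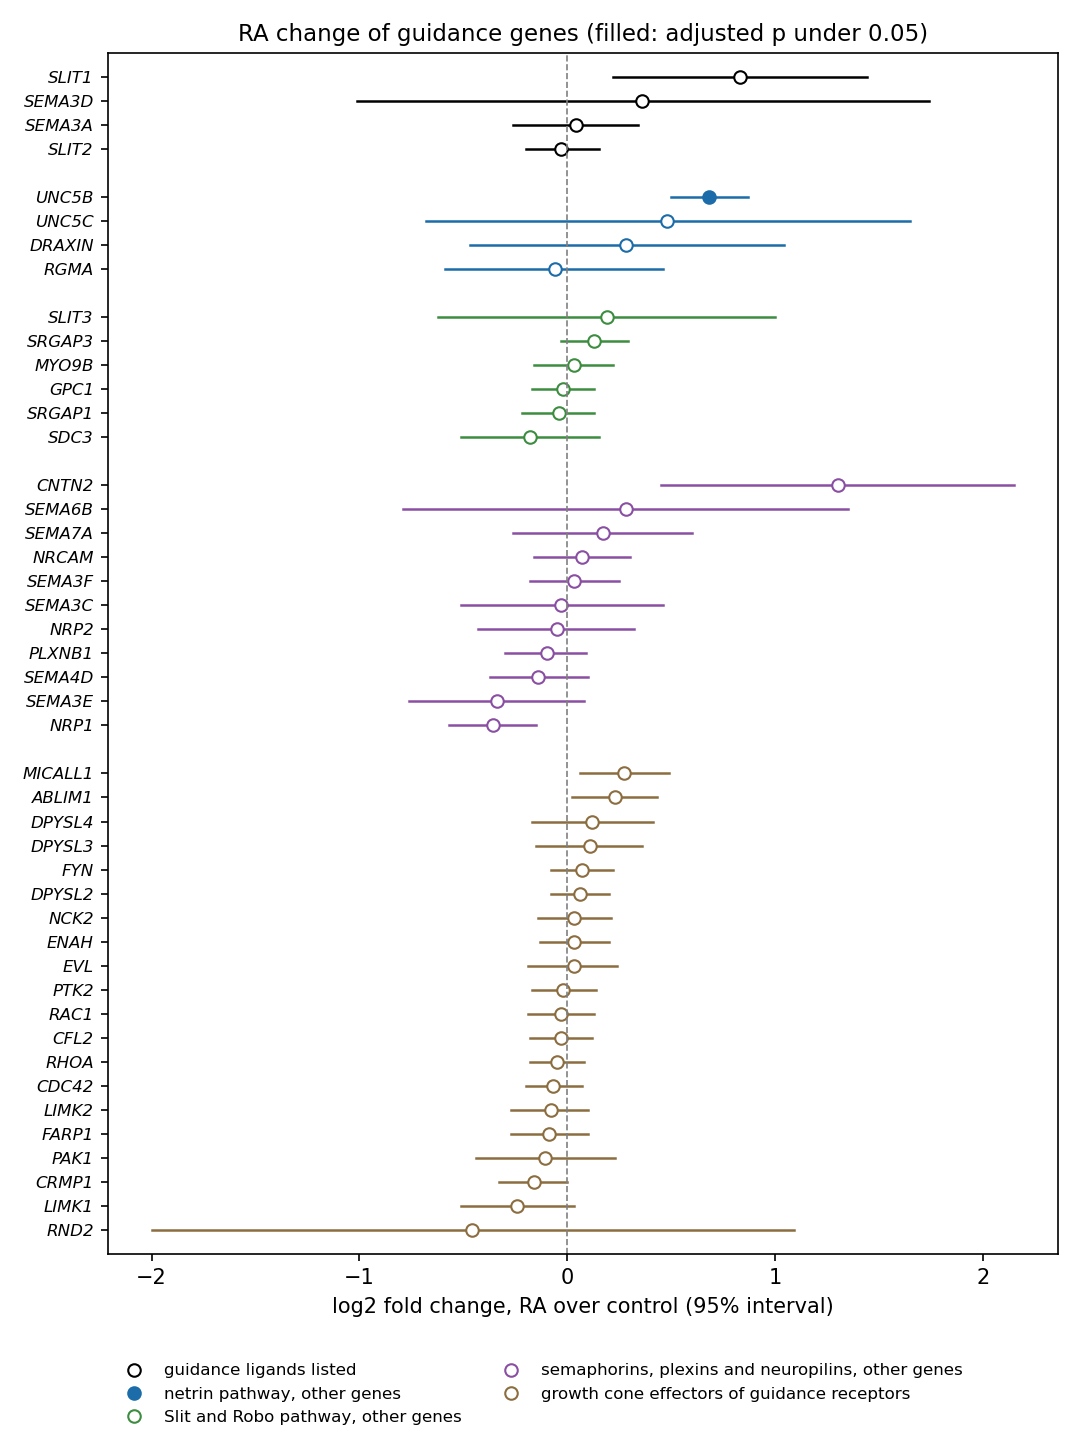
Log2 fold change of RA over control (points) with 95% intervals (lines) for the 4 guidance ligands tested and for 41 other guidance genes, grouped by list and ordered by change within it; filled points have an adjusted p under 0.05. UNC5B is the filled point, at 0.68. The intervals of SLIT1 (0.22 to 1.44), CNTN2 (0.45 to 2.15), MICALL1 (0.06 to 0.49) and ABLIM1 (0.02 to 0.43) lie above 0. That of NRP1 (-0.57 to -0.15) lies below 0. None of these genes passes the adjusted threshold.

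In the Slit and Robo pathway 6 other genes were tested and 0 were called, with 0 at an unadjusted p under 0.05. Of all genes tested, 1.07% were called and 8.89% had an unadjusted p under 0.05. The median log2 fold change of the 6 genes was 0.007. SLIT3, the third Slit gene, had counts of 188, 79 and 143 in the RA libraries of pairs 1, 3 and 4, against 66, 156 and 147 in the control libraries. Scaled to library size, its within-pair log2 differences were 1.25, -0.81 and 0.14, so the pairs moved in opposite directions. Its fitted log2 fold change was 0.19 ± 0.38 (SE, edgeR adjusted p = 0.937). SRGAP3, a GTPase-activating protein that binds Robo receptors, had 0.13 ± 0.08 (SE, edgeR adjusted p = 0.681), and its relative SRGAP1 had -0.04 ± 0.08 (SE, edgeR adjusted p = 0.925). SDC3, a heparan sulfate proteoglycan of the neuronal surface, had -0.18 ± 0.15 (SE, edgeR adjusted p = 0.811).

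Among the 11 other semaphorin, plexin, neuropilin and adhesion genes tested, 0 were called and 2 had an unadjusted p under 0.05, NRP1 and CNTN2. Over all genes tested, 1.07% were called and 8.89% had an unadjusted p under 0.05. NRP1 encodes neuropilin-1, the ligand-binding receptor for SEMA3A and also a receptor for vascular endothelial growth factor. It had 105, 107 and 64 CPM in the RA libraries of pairs 1, 3 and 4, against 137, 116 and 95.9 CPM in the control libraries. Within each pair the RA library was lower, although the groups overlapped. Its log2 fold change was -0.36 ± 0.10 (SE, 95% interval -0.57 to -0.15, edgeR adjusted p = 0.131). NRP2, the neuropilin that binds SEMA3F, had -0.05 ± 0.18 (SE, edgeR adjusted p = 0.972).

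CNTN2 encodes contactin-2, known in the chick as axonin-1, an adhesion molecule of outgrowing axons. It had 3.3, 5.49 and 4.2 CPM in the RA libraries of pairs 1, 3 and 4, against 1.01, 2.26 and 2.16 CPM in the control libraries. The groups did not overlap, where 4.42% of all genes tested had every RA library above every control library. The within-pair log2 differences of CNTN2 were 1.63, 1.25 and 0.93. Its log2 fold change of 1.30 ± 0.40 (SE) was the largest of the guidance genes tested here and rested on 297 counts in all RA libraries and 130 in all control libraries (edgeR adjusted p = 0.209). Of the ganglion cell and early neuron markers, led by TUBB3, 15 of 22 had a row and 0 were called, their median log2 fold change was 0.023, and their summed level was 1534 to 1715 CPM in RA libraries and 1531 to 1683 CPM in control libraries. Photoreceptor precursor markers, led by NEUROD1, had sums of 101 to 119 CPM in RA libraries and 79.1 to 96.1 CPM in control libraries. These sums did not overlap, and RCVRN was at 0 in every library. Of the 7 tested 0 were called and 7 had a log2 fold change above 0, with a median of 0.417. Over all genes tested, 48.1% had a log2 fold change above 0 and the median was -0.007. An unadjusted p under 0.05 was found for 3 of the 7, where 8.89% of all genes tested were below that value. Amacrine and horizontal precursor markers, led by FOXN4, summed to 103 to 140 CPM in RA libraries and 69.2 to 116 CPM in control libraries, with 1 of 3 tested called higher, where 0.952% of all genes tested were. Within each pair the amacrine and horizontal sum was higher with RA, as was the ganglion cell and early neuron sum, by little. The part of these cells in the CNTN2 and SLIT1 values was not tested.

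**Figure D3:**
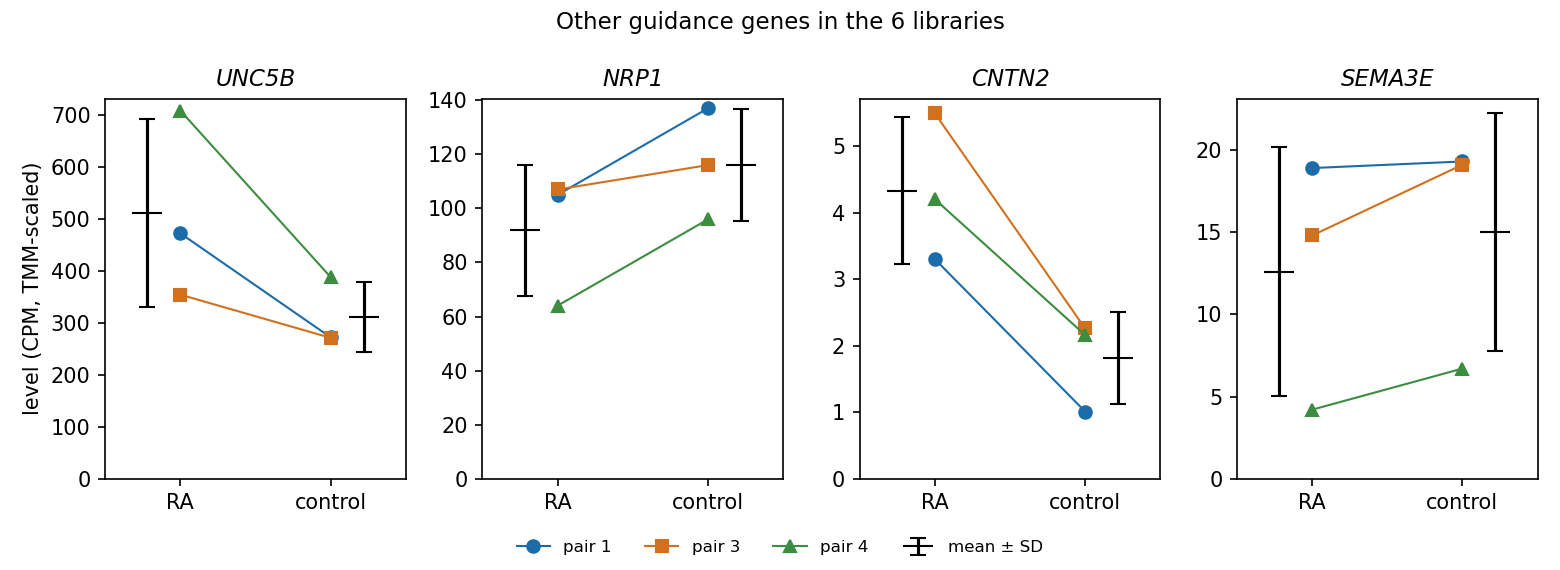
Levels of UNC5B, NRP1, CNTN2 and SEMA3E in CPM (vertical axes from 0, a separate scale per gene) in RA and control libraries; each symbol is a library, lines join the libraries of a pair, and black bars give the mean ± SD of 3 libraries. UNC5B was higher with RA within each pair, NRP1 was lower within each pair, CNTN2 lay at 3.3 to 5.49 CPM in RA libraries and 1.01 to 2.26 CPM in control libraries, and SEMA3E was lowest in pair 4.

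Downstream of the receptors, 20 growth cone effector genes were tested, 0 were called, and their median log2 fold change was -0.024. An unadjusted p under 0.05 was found for 2 of the 20, MICALL1 and ABLIM1. Of all genes tested, 1.07% were called and 8.89% had an unadjusted p under 0.05. MICALL1, an adaptor of endosomal recycling related to the MICAL enzymes of semaphorin signalling, had 0.27 ± 0.10 (SE, edgeR adjusted p = 0.363). ABLIM1, an actin-binding protein with LIM domains, had 0.23 ± 0.09 (SE, edgeR adjusted p = 0.481). MICALL1 was higher with RA in 3 of 3 pairs. ABLIM1 was higher in pairs 1 and 3, with log2 differences of 0.30 and 0.37, and level in pair 4, at 100.1 CPM in the RA library and 99.9 CPM in the control library. CRMP1, a collapsin response mediator that relays the SEMA3A signal, had -0.16 ± 0.08 (SE, edgeR adjusted p = 0.575), the RA library being the lower in all 3 pairs.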

How the data were processed

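The authors deposited raw counts per gene symbol, CPM, and a table of log2 fold changes with p-values for a paired comparison. The submitters' processing notes name galGal5, STAR 2.5.3a, HTSeq 0.6p1 and edgeR 3.18.1, with no role. The strand setting is not given in the sources used here, and no molecular identifiers are mentioned, so counting errors and floors cover counting error only, whereas the 95% intervals come from the fit and include the spread between libraries. Replicates pool different embryos, and nothing further is stated on their independence.

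Counts were tested with edgeR 4.0.16 (R 4.3.3): filterByExpr (minimum count 10, minimum total 15), TMM scaling, glmQLFit with the pair as a block, glmQLFTest, and Benjamini-Hochberg adjustment at 0.05. Within-pair differences use log2 CPM, prior count 2. The series' design text pairs the eyes, and deviations from the group means correlated within pairs by 0.289, 0.248 and 0.338. Replicate libraries differed by more than sampling noise (chi-square per degree of freedom at least 49.54). Fits were tested on simulated data. Alternatives used limma-voom 3.58.1, DESeq2 1.42.0, other scalings and filters, no block, and each pair left out.

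The members and lists were chosen with earlier results of these data known. Named are the members, every called gene of the 4 pathway lists with the 3 of lowest p in each, the 2 genes most like the member of lowest p, RA targets, and the most abundant gene of each marker list. SLIT3, RGMA, NRP2, SEMA3C, SEMA3F, PAX2, NTN3, L1CAM, MICAL1, CDK5, TWIST2, DCN and RCVRN are named outside this rule, after their values were seen. The 5 members with a row matched RefSeq symbols of GRCg7b. No transcript lengths or sequences were used here, so levels are not ranked between genes. In GRCg7b SLIT2 overlaps MIR218-1 and LOC121110523, and SEMA3D overlaps LOC121107435. The submitters' notes name galGal5 instead, and the effect of such overlaps on the counts was not tested.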

Additional observations from a re-analysis of the deposited data

How the results depend on the processing

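The number of genes changed by RA was 54 and stayed within 1.5 times that except in the fit without the replicate block (7), with DESeq2 (88) and with no filter on low counts (85). Leaving out each pair in turn gave 36 to 81. The authors' deposited paired comparison has 12 of 4752 genes at an adjusted p under 0.05, and UNC5B, at 0.94, is not among them. The 4 guidance ligands tested had 0 calls under all 12 alternatives. UNC5B was the gene called among the other guidance genes under 11 of 12 alternatives, and 0 were called without the replicate block. RARB was also lost there (log2 fold change 0.92, adjusted p = 0.133). The adjusted p ranged over the alternatives from 0.0753 to 1.0 for SLIT1, from 0.0506 to 1.0 for NRP1, from 0.17 to 1.0 for CNTN2 and from 6.8e-11 to 1.0 for UNC5B. The number of ligands that differed between pairs was 2, and 1 to 2 when a pair was dropped. Log2 fold changes when pairs were dropped ranged from -0.148 to 0.077 for SLIT2, from -0.175 to 0.167 for SEMA3A, from -0.181 to 1.203 for UNC5C and from -0.14 to 0.012 for SRGAP1, which includes a change of sign for each, and the cause was not tested. With library size only, mean levels of the 5 ligands moved by less than their SD. Division by coding length was not run, and SEMA3D was not tested with the filter of over 1 CPM in 3 libraries and had no adjusted p with DESeq2. SEMA3D had 9 to 45 counts per library and NTN1 0 to 2.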
